A study of Homo sapiens with 6 samples.

Results

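The matrix metalloproteases MMP1, MMP2, MMP3, MMP8, MMP9, MMP14 and MMP15 and the tissue inhibitors TIMP1, TIMP2 and TIMP3 were followed in A375 cells, a human melanoma line, with and without a stable knockdown of the kinase gene MAP4K5. All probe sets annotated to exactly 1 of these 10 gene symbols were taken, which gave 26 of the 49293 probe sets on the array (10 of 18132 genes). The family was proposed with the difference between knockdown and control cells in view, MMP1 and MMP3 being among the largest rises of the array. Fold changes and calls of these genes between the groups are therefore given as a description and not as a test.

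Matrix metalloproteases are zinc-dependent endopeptidases that are mostly made as inactive proenzymes, and opening of their propeptide by another protease starts their activity. Collagenases cut fibrillar collagen, gelatinases cut denatured and basement membrane collagen, and stromelysins have broad substrates and also activate procollagenase. TIMPs bind the active site of these enzymes, and in melanoma the balance of both is studied for its part in invasion.

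Total RNA of untreated cells was measured on 6 Affymetrix arrays. The control group was 3 arrays of A375 cells, and the knockdown group was 3 arrays of A375 cells that stably expressed a short hairpin RNA against MAP4K5, one of the germinal centre kinases. The labels call the arrays of each group biological replicates without saying how the cultures were separated, so the spread between arrays may be technical in part. The labels do not say whether control cells carried a vector or whether the knockdown line was a clone or a pool, so effects of the hairpin, of line selection and of less MAP4K5 cannot be told apart. Values are RMA intensities (robust multi-array average, a background-corrected and quantile-normalized summary of the probes of a set). A log2 fold change is the knockdown mean less the control mean of log2 intensities, and SE is its standard error from the limma fit.

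MAP4K5 measured 77.7, 78.1 and 76.3 on control replicates 1 to 3 and 19.7, 18.8 and 20.3 on knockdown replicates 1 to 3 at its brightest probe set, a log2 fold change of -1.98 ± 0.08 (SE, n = 3 per group). The other 2 probe sets fell by 2.16 and 1.61. Median intensities lay between 4.85 and 4.94 on the 6 arrays. Over all genes, log2 differences between 2 arrays had an SD of 0.17 for each pair of knockdown arrays, 0.20 for control replicates 1 and 3, and 0.32 for control replicate 2 with either of them. Control replicate 2 stood apart from its group and was closer to the knockdown arrays (0.27 to 0.28). Of 8 measured melanocyte and melanoma markers, MITF, SOX10 and S100B lay above the median gene (8.82), and 5 lay below it, among them the pigment genes PMEL, MLANA, TYR and TYRP1, whose intensities did not exceed 3.90. In the fit over all genes 1 of the 8 rose and 2 fell (12.5% and 25%, against 3.70% and 4.13% of all genes). MITF, the melanocyte transcription factor, rose by 0.99 ± 0.16 (SE, limma adjusted p = 0.0114), while SOX10 fell by 0.54 ± 0.11 (limma adjusted p = 0.0286) and S100B by 1.31 ± 0.15 (limma adjusted p = 0.00256). The part of these changes in the results for the proteases and inhibitors was not tested.

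Across the 26 probe sets, 4 were called higher in knockdown cells and 4 lower at an adjusted p under 0.05. Over all 49293 probe sets 4.43% were called, 1.98% higher and 2.46% lower. The groups did not overlap at 12 of the 26, with knockdown above control at 5 and below it at 7, against 12.1% and 11.7% of all probe sets (23.9% in either direction). Since the family was chosen on this contrast, nothing is read from these shares. The median log2 fold change was -0.03 over the 26 and 0.0048 over all probe sets. MMP1 and MMP3 were higher, MMP2 and TIMP3 were lower, TIMP2 was slightly higher, and MMP8, MMP9, MMP14, MMP15 and TIMP1 had no called probe set (of their 14, 2 of TIMP1 had an unadjusted limma p under 0.05). The plot of intensities by array shows the brightest probe set of each gene.

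**Figure D1:**
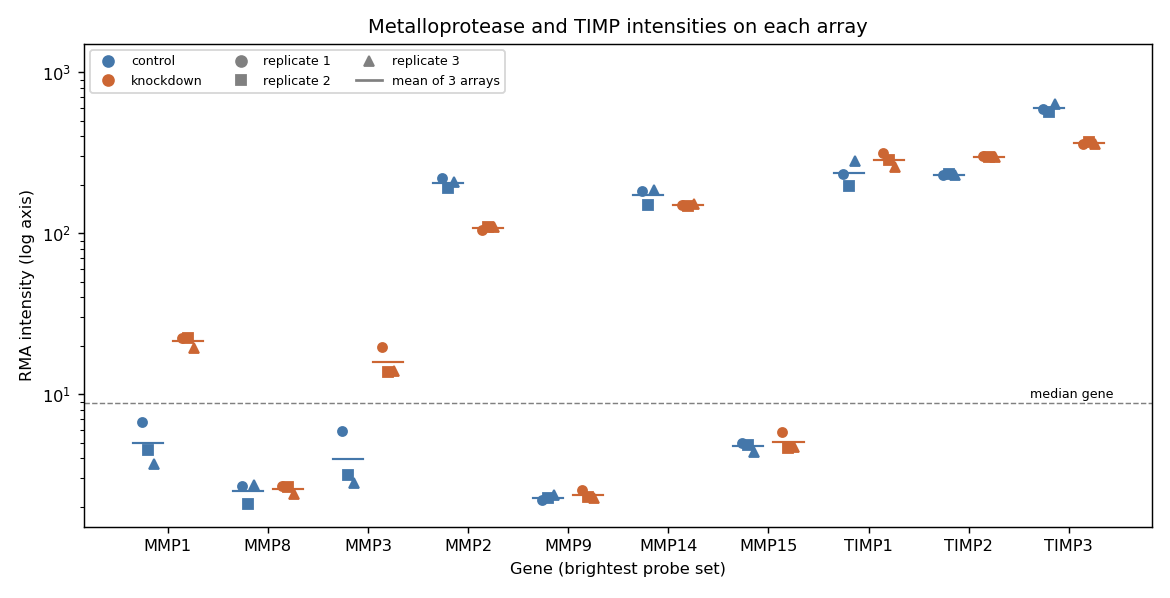
RMA intensity (log axis) of the brightest probe set of each of the 10 genes on each of 3 control and 3 knockdown arrays; marker shape gives the replicate, short lines are group means (n = 3) and the dashed line is the median gene (8.82). MMP1 and MMP3 move from below to above the median gene, MMP2 and TIMP3 are lower on all 3 knockdown arrays, and MMP8, MMP9 and MMP15 stay below the median gene in both groups. Heights of different genes cannot be compared, since probe sets differ in brightness.

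MMP1, the interstitial collagenase that opens the triple helix of fibrillar collagen, had the largest difference of the family. Its brighter probe set (11755928_s_at) measured 6.70, 4.48 and 3.68 on control replicates 1 to 3 and 22.4, 22.4 and 19.3 on knockdown replicates 1 to 3. The groups did not overlap, and the highest control array, replicate 1, reached less than the lowest knockdown array. The group means were 4.95 ± 1.57 and 21.4 ± 1.77 (SD, n = 3 each), and the log2 fold change was 2.15 ± 0.20 (SE), or 4.45-fold. The second probe set (11741897_a_at) measured 3.84, 3.35 and 3.19 in control cells and 14.4, 14.9 and 10.7 in knockdown cells. There the log2 fold change was 1.94 ± 0.14 (SE), and knockdown replicate 3 was again the lowest of its group. Both probe sets were called under each of 6 removals of a single array, with log2 fold changes of 1.96 to 2.40 at the brighter one.

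Against single control arrays, the mean of the knockdown arrays at the brighter MMP1 probe set was higher by 1.67 (control replicate 1), 2.25 (control replicate 2) and 2.54 (control replicate 3) on the log2 scale. The difference was thus smallest against control replicate 1, and control replicate 2, which stood apart over all genes, gave the middle value. In bulk RNA, more cells expressing a gene and more RNA per cell cannot be told apart. Control intensities lay near the bottom of the scale, and with log2(intensity + 8) in place of log2(intensity) the difference was 1.19, still called.

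MMP3, the stromelysin that cleaves many matrix proteins and can activate procollagenase, was read by 1 probe set (11723635_s_at). It measured 5.92, 3.13 and 2.80 in control replicates 1 to 3 and 19.5, 13.7 and 14.0 in knockdown replicates 1 to 3. All 3 knockdown arrays lay above all controls, and replicate 1 was the highest in both groups. The group means were 3.95 ± 1.71 and 15.8 ± 3.28 (SD, n = 3 each), with a log2 fold change of 2.06 ± 0.27 (SE), or 4.17-fold. The difference ran from 1.39 against control replicate 1 to 2.48 against control replicate 3, and it was 0.99 with log2(intensity + 8). The ID of this probe set ends in _s_at, which marks probes that can bind several transcripts, so MMP3 had no probe set free of that mark. The same suffix is on the brighter MMP1 probe set, while the ID of the second one ends in _a_at.

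MMP8, the collagenase of neutrophils, lies in the same gene cluster on chromosome 11 as MMP1 and MMP3. Its 4 probe sets spanned intensities of 2.08 to 2.72 over all arrays, and their log2 fold changes ran from -0.10 to 0.06. The brightest measured 2.69, 2.08 and 2.72 in control and 2.69, 2.65 and 2.41 in knockdown cells, so the groups overlapped. The 95% interval of its difference was -0.22 to 0.33. All 4 lay in the lowest 15.1% of probe sets by mean, where RMA compresses differences, and a change in a transcript below the reach of these probes would not be detectable here.

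Markers of other cells that make these enzymes were also read. All 8 fibroblast markers (among them COL1A1, COL3A1, DCN and LUM) lay below the median gene, and their summed intensity was 31.5 to 31.7 in control and 28.4 to 30.3 in knockdown cells. Of these 8, 0 were called by limma, with 0 higher and 2 lower at an unadjusted p under 0.05. The lower sum has the direction of MMP2 and TIMP3, and its part in their results was not tested. All 8 neutrophil and macrophage markers also lay below it, with sums of 21.9 to 22.4 and 21.7 to 23.0, and so did all 4 endothelial markers, with sums of 16.5 to 17.8 and 17.1 to 21.3. The summed intensity of keratinocyte markers was 123 to 147 in control and 172 to 188 in knockdown cells. KRT14 and KRT10 were called higher (2 of 5, or 40%, against 3.70% of all genes). KRT5, KRT1 and IVL lay below the median gene and were not called. The part of keratin expression in the MMP1 and MMP3 result was not tested.

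**Figure D2:**
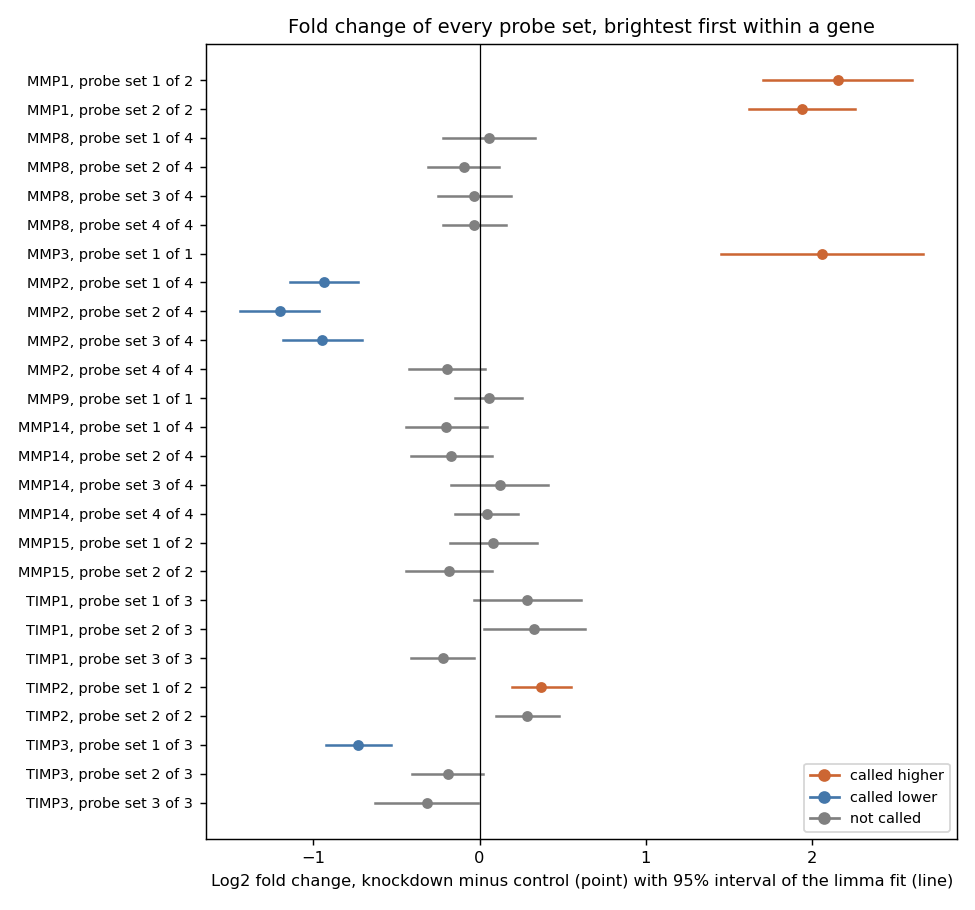
Log2 fold change (knockdown minus control, points) with the 95% interval of the limma fit (lines, n = 3 per group) for all 26 probe sets, ordered by gene and from the brightest down within a gene; colour gives the call over all 49293 probe sets. MMP1 and MMP3 stand near 2, 3 of 4 MMP2 probe sets near -1, and the probe sets of TIMP1 and TIMP3 spread among themselves.

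MMP2, the gelatinase that degrades basement membrane collagen and is activated at the cell surface by MMP14 with TIMP2, was lower in knockdown cells. The brightest of its 4 probe sets (11743251_s_at) measured 219, 190.3 and 209 in control replicates 1 to 3 and 104, 109.7 and 109.5 in knockdown replicates 1 to 3. No knockdown array came near the controls, and the group means were 206 ± 14.6 and 108 ± 3.19 (SD, n = 3 each). The log2 fold change was -0.93 ± 0.09 (SE), a 1.91-fold decrease. The next probe set (11741377_a_at) measured 40.2, 40.4 and 46.5 against 17.8, 17.2 and 20.3, a log2 fold change of -1.20 ± 0.10 (SE). The third (11743250_a_at) measured 32.5, 29.4 and 32.6 against 16.0, 18.4 and 14.8, a log2 fold change of -0.94 ± 0.11 (SE).

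These 3 MMP2 probe sets had the same direction against each control array, with differences of -0.82 to -1.34, and each was called in all 6 fits that left out 1 array. The dimmest (11745767_a_at) measured 3.37 to 4.22 over the 6 arrays, its groups overlapped, and its log2 fold change was -0.20 ± 0.10 (SE), not called. MMP9, the other gelatinase, typical of leukocytes and some tumours, had 1 probe set, with 2.19, 2.27 and 2.38 in control and 2.54, 2.30 and 2.28 in knockdown cells. These intensities lay in the lowest 6.70% of probe sets by mean, the groups overlapped, and the 95% interval of the log2 difference was -0.15 to 0.26.

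MMP14 is the membrane-anchored protease that activates proMMP2. Its brightest probe set (11725988_at) measured 184, 148.8 and 187 in control and 150.5, 148.2 and 151 in knockdown cells. Control replicate 2 lay with the knockdown arrays while controls 1 and 3 lay above them, so the groups overlapped. Its log2 fold change was -0.20 ± 0.11 (SE), and the 95% interval ran from -0.44 to 0.04. Without control replicate 2 it was -0.31 and was called, while against that array alone it was 0.01. The other 3 MMP14 probe sets had log2 fold changes of -0.17, 0.12 and 0.04, all with overlapping groups. The probe set at 0.12 was 10.6 on control replicate 2 and 13.1 to 14.7 on the other 5 arrays.

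MMP15, a second membrane-type enzyme, had 2 probe sets between 2.54 and 5.85 in intensity. The brighter measured 5.01, 4.87 and 4.39 in control and 5.85, 4.64 and 4.68 in knockdown cells, and the log2 fold changes of the pair were 0.08 and -0.18. Groups overlapped at both, and neither was called in any fit.

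Among the inhibitors, the brightest probe set of TIMP3 was called lower and that of TIMP2 higher in knockdown cells. Both IDs end in _s_at. TIMP1 had no called probe set. TIMP3, the inhibitor that stays bound to the matrix and also blocks ADAM proteases, measured 595, 567 and 639.8 in control replicates 1 to 3 and 358, 369.6 and 359 in knockdown replicates 1 to 3 at its brightest probe set (11715435_s_at). The groups were far apart relative to their spread, with means of 601 ± 36.7 and 362 ± 6.55 (SD, n = 3 each), and the log2 fold change was -0.73 ± 0.09 (SE), a 1.66-fold decrease, called in all 6 fits without 1 array. The second probe set (11715436_at) measured 272, 278 and 284 against 269, 233 and 231, a log2 fold change of -0.19 ± 0.09 (SE). The third (11715437_at) measured 162, 128 and 129.7 against 95.2, 126 and 117, a log2 fold change of -0.32 ± 0.14 (SE). At both, every knockdown array lay below every control, but the gap was narrow and neither was called. The 3 probe sets of TIMP3 therefore shared the direction and differed in size by 0.54 on the log2 scale.

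TIMP2, which inhibits MMP2 and also forms the complex with MMP14 that activates it, measured 230.3, 232 and 232 in control and 300.8, 299.6 and 298 in knockdown cells at its brighter probe set (11722786_s_at). Replicates agreed to within a few units in each group, and the log2 fold change was 0.37 ± 0.08 (SE), or 1.29-fold. The second (11748126_a_at) measured 65.0, 66.3 and 66.1 against 81.6, 76.1 and 83.3, a log2 fold change of 0.29 ± 0.08 (SE). Groups did not overlap at either. The brighter one was called, but its call was lost with the replicate number as a block and in 5 of 6 fits without 1 array, all but the fit without control replicate 2, with values of 0.37 to 0.38. The second was called in 1 of 13 alternatives, log2(intensity + 8), where its difference was 0.26, and not with log2(intensity).

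TIMP1, a secreted inhibitor that also acts as a growth and survival factor, measured 233, 196 and 282 in control and 317, 285 and 258 in knockdown cells at its brightest probe set (11715360_x_at). Control replicate 3 lay above knockdown replicate 3, so the groups overlapped, and the log2 fold change was 0.29 ± 0.14 (SE). The next (11715359_a_at) ran in the same order, 170.4, 164 and 221 against 254, 231 and 209.5, with a log2 fold change of 0.33 ± 0.13 (SE). The difference of the knockdown mean from control replicate 3 was 0.02 and 0.06 at these 2 probe sets, and from control replicate 2 it was 0.54 and 0.49. The third (11763761_a_at), at 3.70 to 4.62, had the opposite sign, -0.22 ± 0.08 (SE), with all knockdown arrays below the controls.

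RefSeq promoter sequence was held for 5 of the 10 genes (MMP8, MMP14, MMP15, TIMP1 and TIMP3). The 250 bases before the transcript start of TIMP1 (GRCh38.p14, plus strand, chrX:47582186-47582435) and TIMP3 (plus strand, chr22:32801455-32801704) are shown because these are the inhibitors with an entry, TIMP3 having a probe set called lower and TIMP1 none called. Capitals mark matches, on either strand, to 5 motifs, which were chosen after the sequences had been seen: AP-1 (TGANTCA), a variant AP-1 site (TGAGTAA), the GC box bound by SP1 (GGGCGG), RUNX (TGTGGT) and the TATA box (TATAAA).
TIMP1: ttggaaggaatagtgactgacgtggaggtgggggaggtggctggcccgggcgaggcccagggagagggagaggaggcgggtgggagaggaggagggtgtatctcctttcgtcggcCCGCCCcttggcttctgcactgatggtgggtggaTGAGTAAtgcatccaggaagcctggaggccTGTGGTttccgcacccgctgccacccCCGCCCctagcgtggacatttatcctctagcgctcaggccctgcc
TIMP3: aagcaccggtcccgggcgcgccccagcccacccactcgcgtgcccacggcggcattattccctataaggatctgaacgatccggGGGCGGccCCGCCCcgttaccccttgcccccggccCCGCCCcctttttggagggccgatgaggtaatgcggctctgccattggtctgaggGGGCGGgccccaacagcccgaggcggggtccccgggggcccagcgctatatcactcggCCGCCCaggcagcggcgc
TIMP1 held the variant AP-1 letters from 101 to 95 bases before the start, RUNX letters from 71 to 66 bases before it and 2 GC boxes. TIMP3 held 5 GC boxes and no match to the other motifs. Over the 35116 promoters of the table, windows of the same length held TGANTCA in 6.57%, TGAGTAA in 2.21%, GGGCGG in 42.6%, TGTGGT in 10.98% and TATAAA in 10.7%. MMP14 held 1 GC box and 1 RUNX match, MMP15 held 5 GC boxes, and MMP8 held 1 TATA match. A match is a run of letters and says nothing of binding in these cells.

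On chromosome 11, RefSeq places 9 MMP genes in the order MMP7, MMP20, MMP27, MMP8, MMP10, MMP1, MMP3, MMP12 and MMP13. Over both groups together, the means of MMP1 and MMP3 exceeded the median gene (8.82) and the other 7 stayed below it. MMP1 and MMP3 did so only through the knockdown arrays, since their control means (4.95 and 3.95) also lay below it. Heights of different genes cannot be compared, so this does not rank them. MMP10, a second stromelysin next to MMP1, measured 2.32, 2.08 and 2.25 in control and 3.09, 3.10 and 2.68 in knockdown cells. It rose by 0.41 ± 0.09 (SE) on the log2 scale (limma adjusted p = 0.0348 over all genes), at intensities close to the lowest on the array. That call held in only 1 of 6 fits without 1 array, the fit without control replicate 2, with values of 0.37 to 0.48, and the difference was 0.10 with log2(intensity + 8). MMP12, the macrophage elastase, next to MMP3, stood at 0.26 ± 0.10 (limma adjusted p = 0.161). MMP7 (-0.15), MMP20 (-0.09), MMP27 (0.05) and MMP13 (0.10) were not called.

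**Figure D3:**
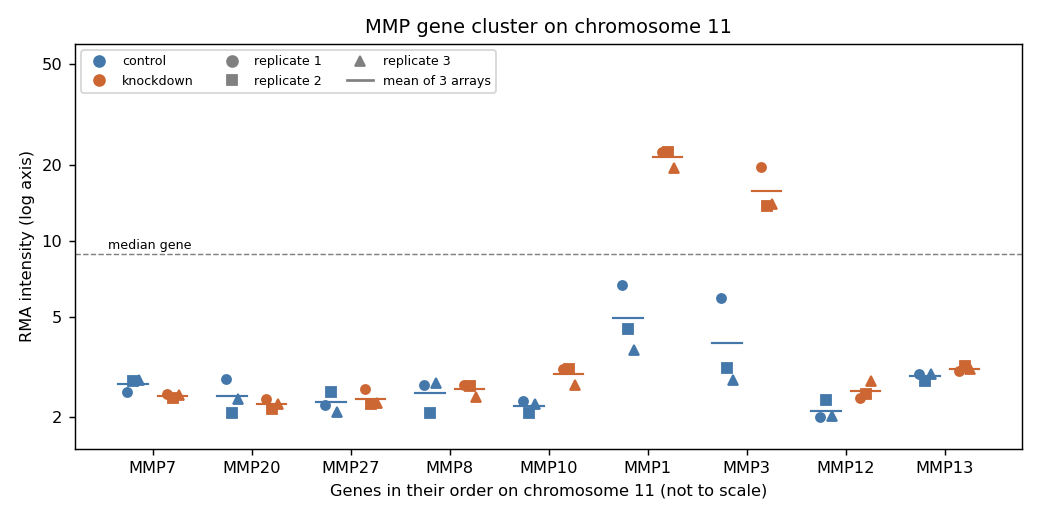
RMA intensity (log axis) on each array for the 9 MMP genes of the chromosome 11 cluster in their RefSeq order, spacing not to scale; marker shape gives the replicate, short lines are group means (n = 3) and the dashed line is the median gene. MMP1 and MMP3 separate between the groups by about 2 log2 units, and MMP10 separates by 0.41 at low intensity.

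The genes with the most similar course over the 6 arrays were taken for MMP1, MMP3 and MMP2, the 3 genes whose brightest probe set spanned at least 1 log2 unit. Likeness was the root mean square (RMS) difference of log2 values after each gene was centred on its own mean. Nearest to MMP1 among all genes was MMP3, at an RMS difference of 0.18, followed by the matricellular protein gene CCN3 (0.30) and the bone morphogenetic protein family gene GDF6 (0.31). For MMP3 the nearest was likewise MMP1, then the histone gene H2BC12 (0.39) and GDF6 (0.40). Both proteases shared the high value of control replicate 1 within the control group. MMP2 was closest to MRC2, an endocytic collagen receptor (0.02), then to BAMBI, a decoy receptor of the TGF-beta family (0.04), and AGMO, an ether lipid cleaving enzyme (0.04). MRC2 fell by 0.94 on the log2 scale (limma adjusted p = 0.000785), beside -0.93 for MMP2. These distances describe 6 arrays in 2 groups and say nothing of shared control.

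Other genes of the protease network were read from 8 lists written from general knowledge, with 163 of 172 genes measured. The lists were chosen with earlier results of these data known, so their shares of called genes are a description and not a test. In the fit over all 18132 genes, 9 of the 163 rose and 16 fell (5.52% and 9.82%), against 3.70% and 4.13% of all genes (7.83% called in all), and the median log2 fold change was -0.0016 against 0.01 over all genes. Of these calls few were stable to the choice of arrays. Without control replicate 2 there were 19 higher and 35 lower, and without any other single array 3 to 5 higher and 6 to 8 lower. The whole array moved in the same way: over all probe sets 4.43% were called with all 6 arrays. That share was 13.4% without control replicate 2 and 0.79% to 1.64% without any other array, so the swing is not particular to the lists. Among the 23 called genes taken by a fixed rule, 9 kept their call in all 6 fits without 1 array and 10 kept it in 1 fit only, the one without control replicate 2. The plot of list genes shows all 8 lists.

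**Figure D4:**
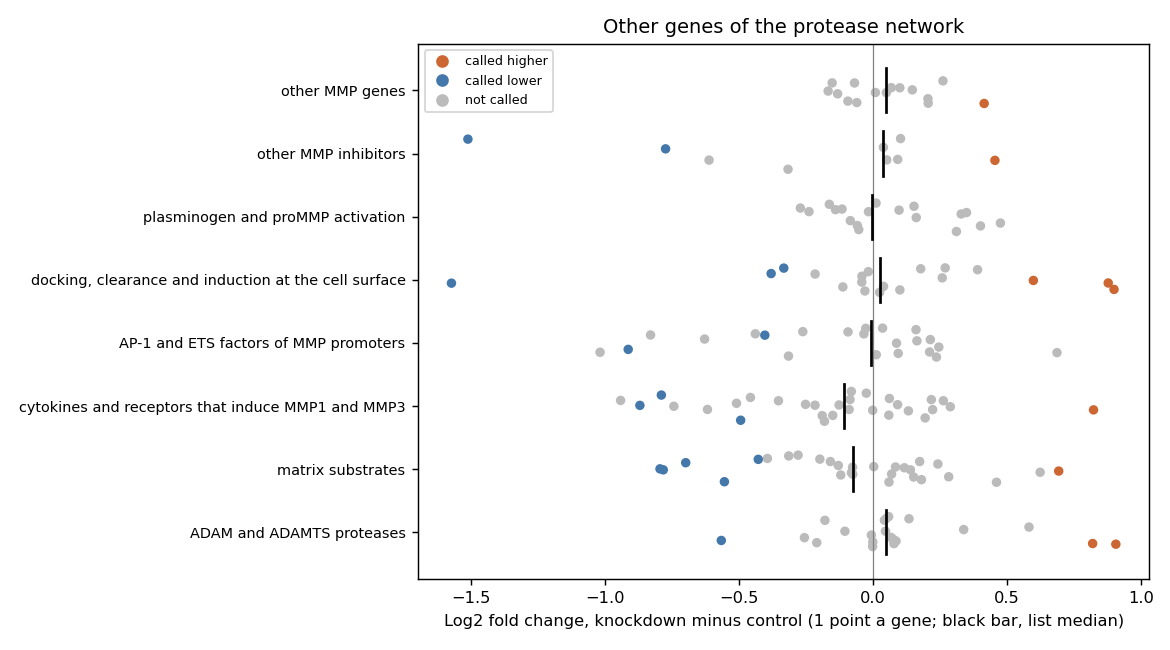
Log2 fold change (knockdown minus control) of each measured gene of 8 lists, 1 point a gene spread vertically for legibility, with the list median as a black bar; colour gives the limma call over all 18132 genes. List medians lie between -0.11 and 0.05, and called genes lie on both sides of 0 in 5 of the 8 lists.

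The remaining MMP genes showed little change, with MMP10 the only one of 15 measured that was called (6.67%, against 7.83% of all genes). Of the 15, 13 lay below the median gene. Of 9 genes listed as other inhibitors, not all of which are inhibitors of MMPs, 1 rose and 2 fell. These are 11.1% and 22.2%, against 3.70% and 4.13% of all genes. Cystatin C (CST3), an inhibitor of cysteine cathepsins, rose by 0.45 ± 0.10 (SE, limma adjusted p = 0.0315), a call that was kept in 2 of the 6 fits without 1 array, those without control replicate 2 or 3 (0.40 to 0.53). A2M, the protease-trapping alpha-2-macroglobulin, measured 8.50, 4.80 and 13.1 in control and 2.96, 2.57 and 3.02 in knockdown cells, a log2 fold change of -1.51 ± 0.30 (limma adjusted p = 0.0246). Its call too was kept, among the 6 fits without 1 array, only without control replicate 2 or 3 (-1.89 to -1.17). With log2(intensity + 8) the difference was -0.60 and was not called. PCOLCE, an enhancer of procollagen processing, fell by 0.77 ± 0.10 (limma adjusted p = 0.00543) and kept its call in all 6 fits, although the mean of its 3 probe sets stood at -0.29 and was not called. TIMP4 (0.09) and the membrane-anchored inhibitor RECK (-0.61, limma adjusted p = 0.136) were not called. Both fall outside the fixed rule for names and are named with their values already known.

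Of 18 measured genes of plasminogen and proenzyme activation, 0 were called by limma, against 7.83% of all genes. At an unadjusted limma p under 0.05, 4 of the 18 were higher and 1 lower. The proprotein convertase PCSK7 came closest, at 0.40 ± 0.11 (limma adjusted p = 0.0713), and it was called without control replicate 2 (0.32 to 0.52 over the 6 fits). Urokinase, PLAU, which starts the plasmin cascade that opens proMMP1 and proMMP3, was named for its role after its value was seen, at 0.47 ± 0.20 (limma adjusted p = 0.202).

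Cell surface genes that dock, clear or induce the enzymes gave 3 rises and 3 falls among 19. These are 15.8% in each direction, against 3.70% and 4.13% of all genes. ITGA2, the alpha 2 chain of a collagen receptor that can bind MMP1, measured 78.3, 56.3 and 73.6 in control and 105, 104 and 103 in knockdown cells, a rise of 0.60 ± 0.12 (SE, limma adjusted p = 0.0278). The call was kept in 2 of the 6 fits without 1 array, those without control replicate 1 or 2 (0.45 to 0.69). The proteoglycan SDC1 rose by 0.88 ± 0.13 (limma adjusted p = 0.00871), a call lost without knockdown replicate 1 (0.74 to 1.02 over the 6 fits). The tetraspanin TSPAN12 rose by 0.90 ± 0.22 and the tight junction gene CLDN1 fell by 1.57 ± 0.37, both called with all 6 arrays. Of the 6 fits without 1 array, both kept their call only in the one without control replicate 2 (0.67 to 1.16 and -2.05 to -1.28). With log2(intensity + 8), TSPAN12 stood at 0.50 and CLDN1 at -1.12, neither called, and as the mean of their probe sets they stood at 0.58 and -0.75, neither called. The integrin chains ITGAV (-0.38) and ITGB3 (-0.33), which form a receptor that can dock MMP2, fell. These 2 calls were also kept, among the 6 fits, only without control replicate 2 (-0.44 to -0.30 and -0.37 to -0.29). Both were lost with the replicate block, without _x_at and _s_at probe sets, and as the mean of the probe sets (-0.22 and -0.25). ITGB3 measured 3.75 to 5.30, below the median gene, with a limma adjusted p of 0.0498. Its call was also lost with an intensity trend, repeated quantile normalization and log2(intensity + 8). CD44, a docking site for several MMPs, and BSG, the inducer known as EMMPRIN, were named for their roles after their values were seen, at -0.02 and -0.22, not called.

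Of 22 measured transcription factors that act on MMP promoters, 0 rose and 2 fell by limma. These are 0% and 9.09%, against 3.70% and 4.13% of all genes. At an unadjusted limma p under 0.05, 2 of the 22 were higher and 6 lower. RUNX2 measured 26.4, 20.3 and 26.4 in control and 12.2, 12.2 and 14.2 in knockdown cells, a log2 fold change of -0.91 ± 0.12 (SE, limma adjusted p = 0.00559), called in all 6 fits without 1 array. ATF2 fell by 0.40 ± 0.10 (limma adjusted p = 0.0476) with all 6 arrays. Of the 6 fits without 1 array, it kept its call only in the one without control replicate 2 (-0.48 to -0.34). It stood at 0.08 once _x_at and _s_at probe sets were left out, and at -0.14, not called, as the mean of its probe sets. The AP-1 subunits JUN (0.21), FOS (0.24) and FOSL1 (-0.32) and the factor ETS1 (-0.63 ± 0.19, limma adjusted p = 0.0849), classic regulators of the MMP1 promoter, were named for that role after their values were seen and were not called.

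Among 30 measured cytokines and receptors known to act on MMP1 and MMP3, 1 rose and 3 fell. These are 3.33% and 10%, against 3.70% and 4.13% of all genes. TGFBR2, the type II receptor of TGF-beta, measured 115, 128 and 140.1 in control and 224, 224 and 227 in knockdown cells, a rise of 0.82 ± 0.09 (SE, limma adjusted p = 0.00273) that was called in all 6 fits. The chemokine CXCL8 fell by 0.79 ± 0.11 (limma adjusted p = 0.00591), also in all 6. IL1RAP, the shared chain of the interleukin-1 receptor, fell by 0.87 ± 0.18 and the growth factor FGF2 by 0.49 ± 0.11, both called with all 6 arrays. Of the 6 fits without 1 array, both kept their call only in the one without control replicate 2 (-1.11 to -0.73 and -0.62 to -0.42). With log2(intensity + 8) neither was called (-0.70 and -0.35), and IL1RAP stood at -0.36, not called, as the mean of its probe sets. The inducers IL1A (-0.51) and IL1B (-0.35), named after their values were seen, were not called.

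Of 29 measured substrates of the enzymes, 5 fell and 1 rose (17.2% and 3.45%), against 4.13% and 3.70% of all genes. The list median was -0.076. Tenascin C (TNC) measured 259, 231 and 297 in control and 146, 146 and 159 in knockdown cells, a log2 fold change of -0.80 ± 0.11 (SE, limma adjusted p = 0.00538). The basement membrane linker nidogen, NID1, fell by 0.70 ± 0.10, and the laminin chain LAMB3 rose by 0.69 ± 0.10. These 3 were called in all 6 fits without 1 array, but LAMB3 stood at 0.33, not called, as the mean of its probe sets. The proteoglycan gene BGN fell by 0.78 ± 0.10 and kept its call in the 6 fits, but stood at -0.0058 once _x_at and _s_at probe sets were left out. LAMB1 (-0.56) and COL5A2 (-0.43) completed the falls and are named with their values already known. The stability of their calls was not examined. Of 21 ADAM and ADAMTS genes, 2 rose and 1 fell (9.52% and 4.76%, against 3.70% and 4.13% of all genes). ADAM19 rose by 0.82 ± 0.09 (limma adjusted p = 0.00248) but stood at -0.10 once _x_at and _s_at probe sets were left out and at 0.24 as the mean of its probe sets, not called in either. ADAMTS1, an aggrecanase, rose by 0.90 ± 0.18, and ADAM17, the shedding enzyme inhibited by TIMP3, fell by 0.57 ± 0.13, both called with all 6 arrays. Of the 6 fits without 1 array, both kept their call only in the one without control replicate 2 (0.74 to 1.14 and -0.68 to -0.43), and ADAM17 stood at -0.53 with log2(intensity + 8) and at -0.32 as the mean of its probe sets, not called in either.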

How the data were processed

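The authors deposited 1 table of linear intensities, made with RMA per the submitters' processing notes, whose version those notes do not give. No value was below 0 and the highest was 6658. Log2 was taken without a pseudocount. The platform annotation gave 44988 probe sets 1 gene symbol, 1832 several and 2473 none. Entrez identifiers were matched to RefSeq GRCh38.p14, which changed 0 symbols and left 27 probe sets unmatched. limma 3.58.1 (R 4.3.3; lmFit and eBayes) compared the groups over all 49293 probe sets for the family, and over 18132 genes (the probe set with the highest mean of each) for the lists, with Benjamini-Hochberg adjustment. Called means an adjusted p under 0.05. Both fits were run on simulated data with planted changes and independent noise on each array. That noise holds no array-wide departure like that of control replicate 2, so the runs do not test the calls given here. The arrays, 3 per group, limit precision, and no depth applies. Members and lists were chosen with earlier results of these data known. The rule for names took every member, up to 3 called genes a direction of each list, or the gene with the smallest p where none was called, and the 3 most similar genes of members spanning 1 log2 unit. Deviations of same-numbered arrays from their group means correlated at -0.08, 0.02 and 0.06 over all genes, and the main fit was unpaired. The labels do not say whether the numbers pair the arrays. These correlations cannot exclude it, since control replicate 2, which stood apart, weighs on the control deviations. Alternatives were a replicate block, an intensity trend, array weights, repeated quantile normalization, log2(intensity + 8), leaving out the lowest 25% of rows, _x_at and _s_at probe sets or each array in turn, and averaging the probe sets of a gene. Python 3.11.15, pandas 2.3.3 and matplotlib 3.10.9 served for sequences and plots.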

Additional observations from a re-analysis of the deposited data

How the results depend on the processing

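Of the 8 called probe sets of the family, 7 were called under all alternatives in which they were tested; the exception was the brighter one of TIMP2. With _x_at and _s_at probe sets left out, 19 of the 26 remained, and 1 was called higher (MMP1) and 2 lower (MMP2). The only called probe sets of MMP3, TIMP2 and TIMP3 end in _s_at and were left out there. Their calls were therefore not tested in that fit, in which these genes had no called probe set. Without 1 array, 3 to 4 were called higher and 4 to 5 lower, while the share called over all probe sets ran from 0.79% to 13.4%. With the replicate number as a block, 3 were called higher and 4 lower (4.04% over all probe sets). With log2(intensity + 8), MMP1 stood at 1.19 and 0.89, MMP3 at 0.99 and the other called MMP2 probe sets at -0.93 and -0.70, all still called. For the lists, array weights gave 18 genes higher and 29 lower, and leaving out _x_at and _s_at probe sets gave 5 higher. Leaving out 1 array gave 3 to 19 higher and 6 to 35 lower. Over all probe sets, 4.43% were called in the main fit, 9.44% with array weights and 3.91% without _x_at and _s_at probe sets. ADAM19 and ATF2 changed sign once _x_at and _s_at probe sets were left out (-0.10 and 0.076), since another probe set then stood for the gene. The replicate block gave 9 higher and 14 lower, and CST3, MMP10, ITGAV, ITGB3 and ATF2 lost their calls under it. Whether the numbers pair the arrays is not known (correlations -0.08, 0.02 and 0.06 over all genes). Under the block the SE of MMP3 went from 0.27 to 0.13, and that of the brightest MMP2 probe set from 0.09 to 0.10. Intensities near the lowest on the array (MMP8, MMP9, MMP15 and MMP10) limit what a difference there can show.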
